A study of Mus musculus with 6 samples.

Results

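The genes described here are 10 transcripts of the hedgehog pathway in lymphatic endothelial cells of the mouse meninges, the membranes around the brain: the co-receptor genes Cdon, Boc and Gas1, the receptor gene Ptch1, the signal transducer gene Smo, the transcription factor genes Gli1, Gli2 and Gli3, the ligand-binding inhibitor gene Hhip and the ligand release gene Scube2. They are 10 of the 22964 genes in the table of estimated counts, and they were listed by name with earlier results of these data known. They count as chosen by their old-against-young values, so differences between ages are given as a description, without p-values. The study set 3 samples from old mice, 20 to 24 months of age, against 3 samples from young mice, 2 to 3 months of age. All animals were untreated wild-type males of the C57BL/6J strain, bought from Jackson Labs or supplied by the NIH/NIA, and the cells were sorted as negative for CD45 and positive for CD31 and podoplanin. Which sample had which supplier is not given, so supplier and age cannot be told apart. The labels do not say whether a sample is 1 animal or a pool, so the spread between samples may be technical.

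Hedgehog proteins are secreted signals that pattern embryonic tissues and act between stromal, endothelial and nerve-sheath cells in the adult. Without ligand, PTCH1 holds SMO inactive; ligand binding to PTCH1, helped by CDON, BOC and GAS1, releases SMO, and GLI factors then switch on target genes. Ptch1, Gli1 and Hhip are themselves targets, so their transcripts are often read as a measure of pathway output. SCUBE2 helps release the lipid-modified ligand from the cells that make it.

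The libraries held 14285794 to 21043945 estimated counts. The lymphatic markers Prox1, Lyve1, Flt4 and the other 6 of a list of 9 had counts in every library, with a summed level of 16832 to 20558 CPM (counts scaled to library size) in old samples and 10611 to 13167 CPM in young samples. Transcripts of other cell types were present as well. A list of 11 fibroblast markers, none of them at 0 in any library, summed to 2824 to 3508 CPM in old samples and 5567 to 8503 CPM in young samples. A list of 10 macrophage and microglia markers, also none at 0, summed to 826 to 1913 CPM in old samples and 765 to 3951 CPM in young samples. Summed levels of 10 pericyte and smooth muscle markers were 973 to 2019 CPM in old and 644 to 983 CPM in young samples. Old sample 1 was the highest, with Myh11 at 668 CPM and Acta2 at 453 CPM, though Cspg4 was at 0 there. Des was at 0 in old sample 3 and young sample 2. In such bulk libraries, fewer cells of a type and less RNA per cell cannot be told apart.

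Within the set, Cdon and Gli2 were lower and Scube2 was higher in every old sample than in every young sample, and the values of the other 7 genes overlapped between the ages. Of all 15394 genes tested, 6.44% were lower and 5.56% were higher without overlap. By edgeR's quasi-likelihood test with Benjamini-Hochberg adjustment, 0 of the 10 genes and 0% of all genes tested passed, with a smallest adjusted p = 0.235 over all genes, and 856 genes, 5.56%, had an unadjusted p under 0.05. DESeq2 passed Cdon, Gli2 and Scube2 where it passed 0.844% of all genes, and limma-voom passed 0 of the 10 where it passed 0.0195%. In simulated data of this design, 83 of 129 DESeq2 calls were false, against 0 of 16 edgeR calls. Of genes changed by 4- and 8-fold there, DESeq2 recovered 14.9% and 51.5%, and edgeR 1.49% and 22.7%. The simulation took the spread of each gene from edgeR, so it may not be neutral between the tools. Nothing is read from the counts of genes passed, since the same contrast chose the genes. The median log2 fold change, old over young, was 0.04 over the 10 genes and 0.02 over all genes tested, with 5 of the 10 above 0, where 51% of all genes were.

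**Figure D1:**
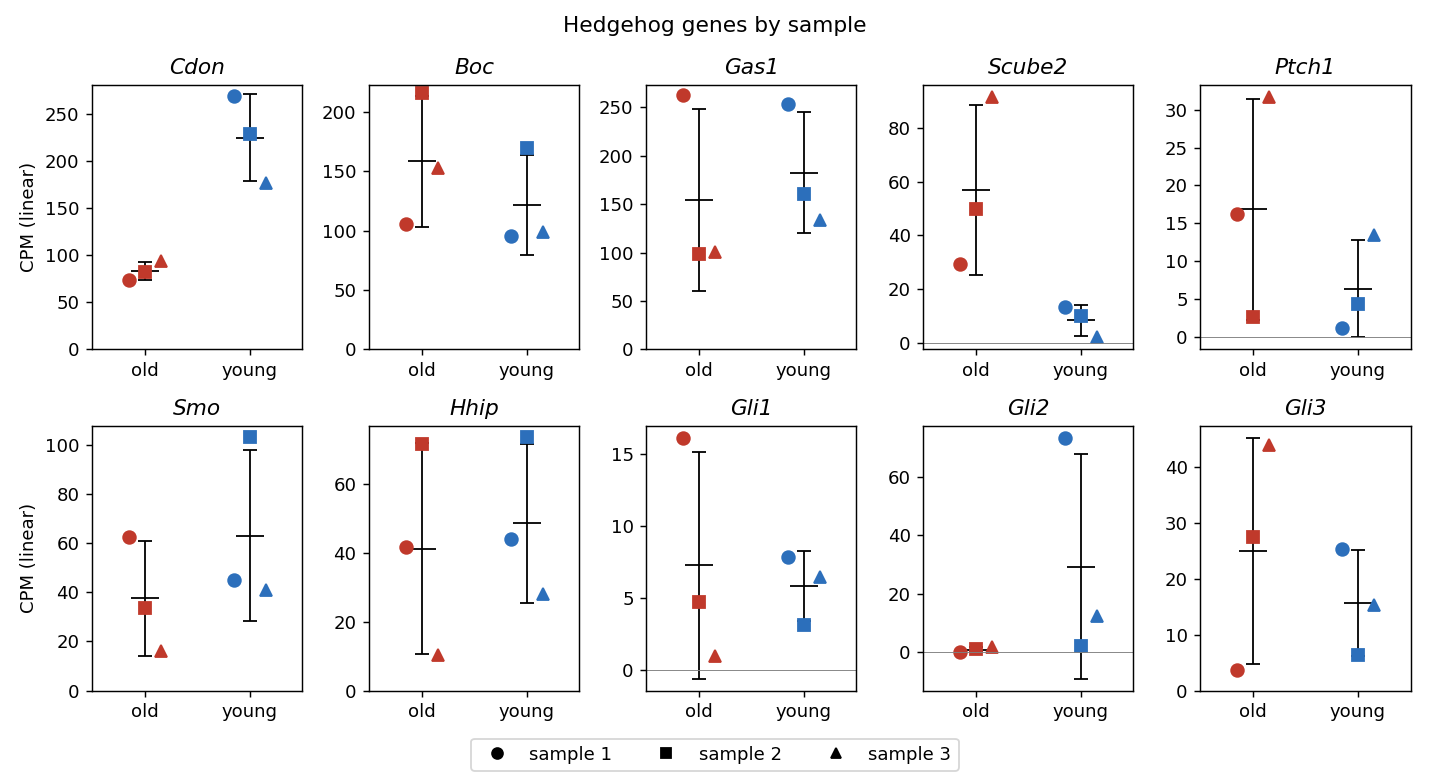
Level in CPM (linear axis from 0, or just below it where an error bar passes 0) of each of the 10 genes in the 3 old (red) and 3 young (blue) samples, with symbols for the samples and black bars for mean ± SD. Cdon and Gli2 of old samples lie below, and Scube2 of old samples above, all young samples.

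Cdon encodes a cell-surface protein of the immunoglobulin and fibronectin type III superfamily that binds hedgehog ligands and presents them to PTCH1. Cdon (ENSMUSG00000038119; chromosome 9, 35421128 to 35507652, plus strand, GRCm38) had 73.8, 82.7 and 93.5 CPM in old samples 1, 2 and 3, against 269, 229 and 177 CPM in young samples 1, 2 and 3. The groups did not overlap, and the highest old value was well under the lowest young value. The means were 83.3 ± 9.87 CPM in old cells and 225 ± 46.5 CPM in young cells (SD, n = 3 each), a log2 fold change of -1.43 (SE 0.30). These levels rested on 986 to 1915 counts in old libraries and 3924 to 4512 counts in young libraries. With each sample left out in turn the log2 fold change lay between -1.59 and -1.28. Cdon also varied little within an age, with a pooled SD of 0.25 on the log2 CPM scale, where the median was 0.40 for the 1891 tested genes of at least 100 CPM.

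Boc, the paralogue of Cdon, encodes a protein with the same co-receptor role. It had 106, 216 and 153 CPM in old samples 1, 2 and 3, against 95.6, 170 and 98.9 CPM in young samples 1, 2 and 3. The ranges overlapped, with the highest level in old sample 2 and the lowest in young sample 1. Its log2 fold change was 0.39 (SE 0.38). Gas1, a co-receptor anchored to the membrane by a lipid, had 263, 98.4 and 101 CPM in old samples 1, 2 and 3, against 253, 160 and 134 CPM in young samples 1, 2 and 3. Old sample 1 and young sample 1 stood above the others, and the groups overlapped. Its log2 fold change was -0.24 (SE 0.45), which became 0.07 when young sample 1 was left out and 0.00 when old sample 2 was.

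The share of Cdon among the co-receptor transcripts was lower in every old library. Cdon made up 16.6%, 20.8% and 26.9% of the summed Cdon, Boc and Gas1 counts in old samples 1, 2 and 3, against 43.6%, 41.0% and 43.1% in young samples 1, 2 and 3. The young shares lay close together and above all old shares. Per Boc count there were 0.693, 0.383 and 0.611 Cdon counts in old samples 1, 2 and 3, against 2.82, 1.35 and 1.79 in young samples 1, 2 and 3. These ratios, not corrected for the longer exons of Cdon, were lower in every old library. Per kilobase of annotated exon, Cdon had 9.56, 10.7 and 12.1 CPM, against 23.9, 48.6 and 34.4 CPM for Boc, in old samples 1, 2 and 3. In young samples 1, 2 and 3 it had 34.9, 29.7 and 22.9 CPM per kilobase, against 21.5, 38.1 and 22.2 for Boc. Per length, Cdon was thus below Boc in all 3 old samples and in young sample 2, and above it in young samples 1 and 3. The sum of the 3 transcripts was 396 ± 47.6 CPM in old cells and 529 ± 107 CPM in young cells (SD, n = 3 each), with overlapping ranges. These shares use the same Cdon values as above and are not further evidence.

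**Figure D2:**
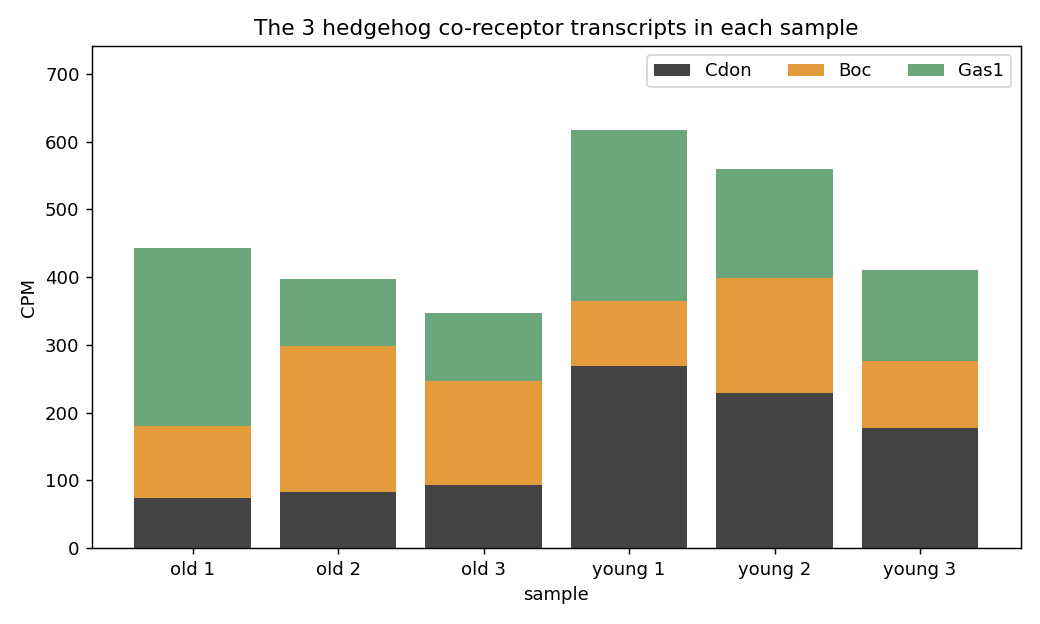
Stacked bars from 0 show the level in CPM of Cdon, Boc and Gas1 in each old and young sample. The Cdon segment is 73.8 to 93.5 CPM in old samples and 177 to 269 CPM in young samples, while the Boc and Gas1 segments overlap between the ages.

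The genes whose profile lay closest to that of Cdon included 3 collagen genes. Likeness was measured as the root mean square difference of log2 CPM, each gene centred on its own mean over the 6 samples. It was ranked among 10637 other tested genes with a mean of at least 5 CPM. Genes without a symbol, or with a symbol that is a Gm, Rik or other clone name, were left out. Col3a1, the chain of type III collagen, was nearest at 0.11 log2 units. It was followed by Col1a2 at 0.14 and Col1a1 at 0.18, which encode the chains of type I collagen. Psmd13, a proteasome subunit, came next at 0.203, and Fbln1, a matrix glycoprotein, at 0.205. Among the 9 other hedgehog genes, Gas1 was the nearest at 0.78, followed by Smo at 0.84 and Boc at 0.98. The 6 samples include both ages, so a gene that differs between them in the same way as Cdon is near it by this measure.

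**Figure D3:**
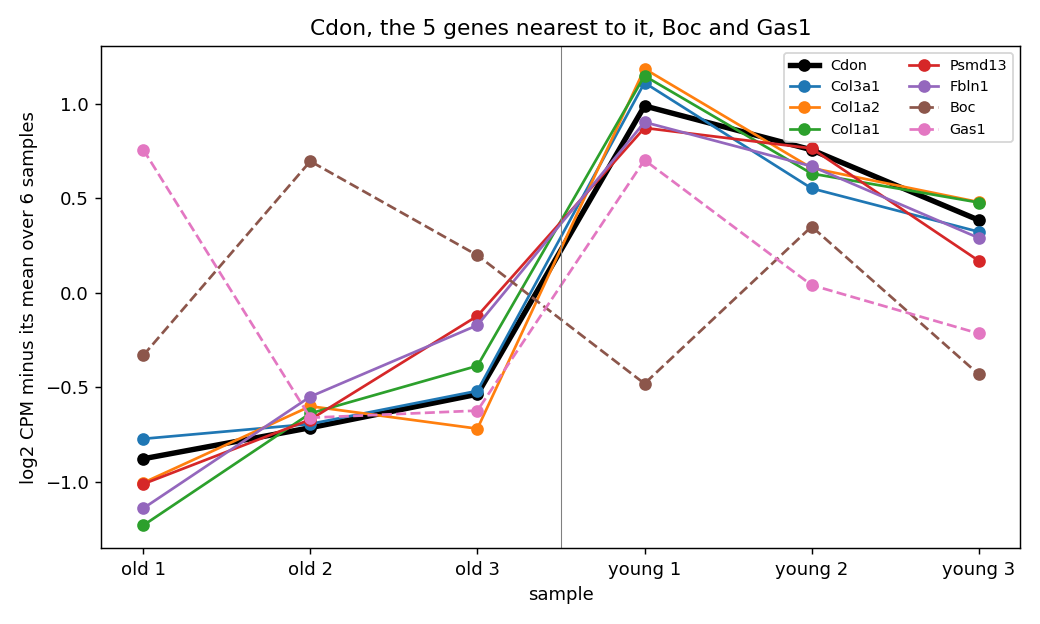
Log2 CPM of Cdon (thick black line), of the 5 genes nearest to it and of Boc and Gas1 (dashed), each minus its own mean over the 6 samples; lines join the values of 1 gene and carry no order. The 5 genes lie 0.109 to 0.205 log2 units (root mean square) from Cdon, against 0.98 for Boc and 0.78 for Gas1.

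The fibroblast markers as a sum were also lower in every old sample. The summed level of that list was 2824, 3133 and 3508 CPM in old samples 1, 2 and 3, against 8503, 6274 and 5567 CPM in young samples 1, 2 and 3. Of its 11 members, 10 had a log2 fold change below 0, 6 of them without overlap between the ages, and Islr was at 0.36. Pdgfra, Dcn, Dpep1 and Crym were below 0 with overlap. Of all genes tested, 51% had a log2 fold change above 0, and 6.44% were lower in old samples without overlap. The list holds Col1a1, Col1a2 and Col3a1, the collagen genes nearest to Cdon, so it is not independent of that choice. In young samples Col1a2 and Col1a1 averaged 1983 and 1532 CPM. Both the list and Cdon were lowest in old sample 1 and highest in young sample 1. Set against Col1a2, there were 13.1, 11.1 and 13.6 Cdon counts per 100 Col1a2 counts in old samples 1, 2 and 3, against 10.5, 12.8 and 11.2 in young samples 1, 2 and 3. These ratios overlapped between the ages. Col1a2 lay near Cdon in profile over the same samples, so a ratio that changes little follows from that closeness and is not further evidence.

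Set against Pdgfra, the whole fibroblast list or the lymphatic list, Cdon was lower in every old sample. Ratios to Col1a1 and Col3a1, which also lay near Cdon in profile, were not taken. Per 100 counts of Pdgfra, a growth factor receptor of fibroblasts, there were 99.7, 71.8 and 125 Cdon counts in old samples 1, 2 and 3, against 180, 212 and 241 in young samples 1, 2 and 3. Per 1000 counts of the whole fibroblast list there were 26.1 to 26.7 Cdon counts in old samples and 31.7 to 36.5 in young samples, without overlap. Per 1000 counts of the lymphatic list there were 3.59 to 5.03 Cdon counts in old samples and 16.0 to 21.6 in young samples. The lymphatic list was itself higher in every old sample, so the ratio to it had to be lower there. All these ratios use the same Cdon values as above and are not further evidence. The ratios were chosen after the values were seen, and the part of other cell types in the Cdon difference was not tested.

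Scube2, a secreted protein that carries hedgehog ligands away from producing cells and is also known in endothelial cells as a co-receptor of VEGFR2, was higher in old samples. Scube2 (ENSMUSG00000007279; chromosome 7, 109798676 to 109865679, minus strand, GRCm38) had 29.3, 49.9 and 91.5 CPM in old samples 1, 2 and 3, against 13.4, 10.1 and 2.12 CPM in young samples 1, 2 and 3. Every old sample was above every young sample, but the old samples were spread widely. The means were 56.9 ± 31.7 CPM in old cells and 8.54 ± 5.81 CPM in young cells (SD, n = 3 each), a log2 fold change of 2.74 (SE 0.83). With each sample left out in turn it lay between 2.21 and 3.22. A list of 11 blood endothelial markers, of which Mfsd2a alone was at 0 in any library (old sample 1 and young sample 1), was also higher in old samples, with 2439, 2385 and 2834 CPM in old samples 1, 2 and 3, against 1365, 1485 and 1479 CPM in young samples 1, 2 and 3. Of its 10 tested members, 9 had a log2 fold change above 0, 5 of them without overlap, and Spock2 was at -0.605. Of all genes tested, 51% were above 0 and 5.56% were higher in old samples without overlap. The lymphatic list was higher in every old sample as well, at 16832 to 20558 CPM against 10611 to 13167 CPM. The part of either cell type in the Scube2 difference was not tested.

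Gli2 encodes the main activating transcription factor of the pathway. Gli2 (ENSMUSG00000048402; chromosome 1, 118834132 to 119053619, minus strand, GRCm38) had 0, 1.09 and 1.71 CPM in old samples 1, 2 and 3, against 73.3, 2.34 and 12.5 CPM in young samples 1, 2 and 3. The old samples held 0, 15 and 35 counts, and a count of 0 in old sample 1 allows a level of up to 0.223 CPM, counting error only. The groups did not overlap, but young sample 2 lay only just above old sample 3, and young sample 1 was far above the rest. The log2 fold change of -4.95 (SE 1.74) became -2.97 without young sample 1. Its pooled SD within an age, 2.31 on the log2 CPM scale, was the widest of the 10 genes.

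The upstream sequences of Gli2 and Scube2 are given because these genes, with Cdon, are the members whose ages did not overlap. RefSeq promoter windows (GRCm38.p6) were matched for 8 of the 10 genes. Of these, the Cdon, Gas1 and Gli3 windows reach into annotated exons before the RefSeq start and are not printed. The 250 bases before the start, 5′ to 3′ on the gene's strand, are shown with GC boxes, the letters GGGCGG or CCGCCC that transcription factors of the SP family bind, in capitals. The Gli2 window lies at chr1:119053620-119053869 and the Scube2 window at chr7:109865680-109865929, both on the minus strand.
Gli2: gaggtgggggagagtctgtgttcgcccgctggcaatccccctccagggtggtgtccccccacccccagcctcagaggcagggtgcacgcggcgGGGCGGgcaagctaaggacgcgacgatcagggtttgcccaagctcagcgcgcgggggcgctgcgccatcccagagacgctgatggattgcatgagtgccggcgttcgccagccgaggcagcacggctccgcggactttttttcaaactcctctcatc
Scube2: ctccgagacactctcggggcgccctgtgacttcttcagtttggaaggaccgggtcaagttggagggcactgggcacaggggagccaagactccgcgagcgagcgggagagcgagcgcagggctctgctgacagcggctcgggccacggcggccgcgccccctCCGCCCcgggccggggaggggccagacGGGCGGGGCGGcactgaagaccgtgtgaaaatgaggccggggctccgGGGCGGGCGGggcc
The Gli2 window holds 1 GC box and 22 CG pairs, and the Scube2 window holds 5 GC boxes, some overlapping, and 27 CG pairs. A GC box on either strand was present in 32.7% of all 32851 such windows. The GLI site letters GACCACCCA, searched on both strands, were in 0.225% of all windows and in 0 of the 8 matched, Ptch1 and Hhip included. That says only that these letters are not in these windows.

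Gli3 encodes the main repressing factor of the family and Gli1 an activator that is itself a target. Gli3 had 3.74, 27.4 and 43.9 CPM in old samples 1, 2 and 3, against 25.4, 6.45 and 15.4 CPM in young samples 1, 2 and 3. The old samples spanned the young ones, with old sample 1 lowest and old sample 3 highest. Its log2 fold change was 0.67 (SE 0.97), which became -0.02 without old sample 3. Gli1 had 16.1, 4.72 and 0.976 CPM in old samples 1, 2 and 3, against 7.82, 3.10 and 6.48 CPM in young samples 1, 2 and 3. Again the old samples spanned the young ones, here with old sample 1 highest and old sample 3 lowest. The log2 fold change was 0.32 (SE 1.22), which became -1.03 without old sample 1, -0.52 in limma-voom and -0.23 with a replicate block. On the opposite strand, exons of Gli1 share 62 bases with Arhgap9 and 265 with Gm47200, those of Gli3 share 188 with Gm6556, those of Gas1 share 589 with Gm48488 and those of Hhip share 175 with Gm27820. With strandedness not given, reads from these stretches cannot be told apart. Arhgap9 did not pass the filter on low counts.

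Ptch1, the receptor and a target of the pathway, had 16.2, 2.54 and 31.7 CPM in old samples 1, 2 and 3, against 1.12, 4.32 and 13.5 CPM in young samples 1, 2 and 3. The groups overlapped, since old sample 2 lay within the young range. The log2 fold change was 1.41 (SE 1.23), between 0.57 and 2.62 with a sample left out. Hhip, a membrane-bound decoy for the ligand and also a target, had 41.6, 71.5 and 10.4 CPM in old samples 1, 2 and 3, against 43.9, 73.5 and 28.0 CPM in young samples 1, 2 and 3. Sample 2 was highest in each age, and old sample 3 was lowest of all. The log2 fold change was -0.24 (SE 0.72), turning to 0.18 when young sample 2 was left out and to 0.22 when old sample 3 was. The 3 target genes did not share an order over the samples: old sample 3 had the highest Ptch1 level and the lowest Gli1 and Hhip levels of the 6 libraries.

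Smo, the membrane protein that passes the signal into the cell once PTCH1 is bound, had 62.5, 33.6 and 16.3 CPM in old samples 1, 2 and 3, against 45.1, 103 and 40.9 CPM in young samples 1, 2 and 3. Young sample 2 was highest, and old sample 1 lay within the young range. For Smo the log2 fold change was -0.75 (SE 0.63), between -1.34 and -0.21 with a sample left out.

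**Figure D4:**
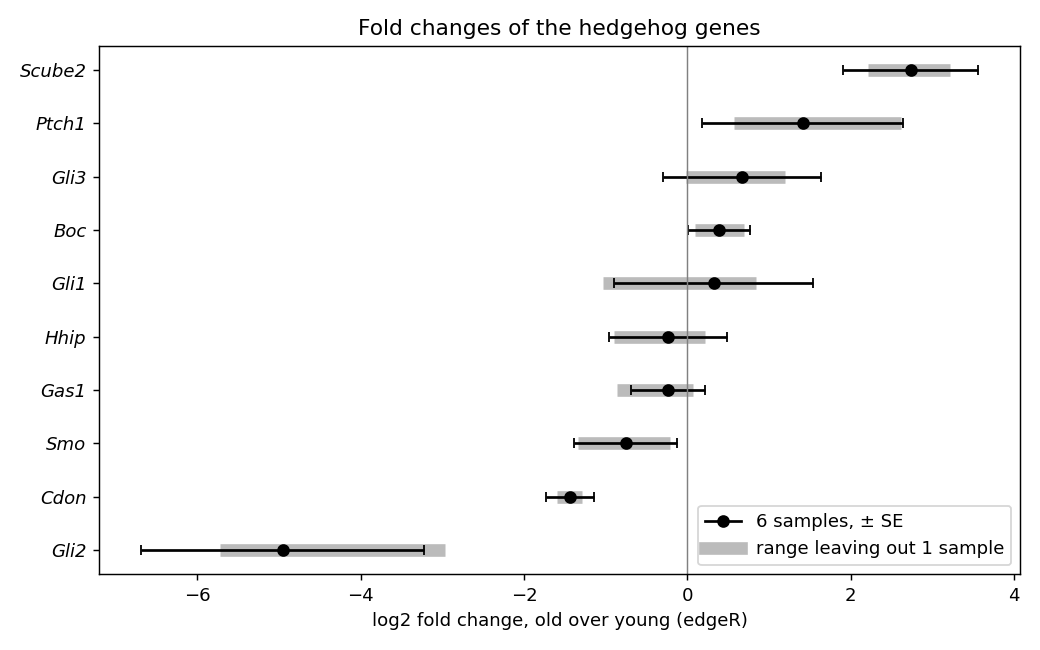
Log2 fold change, old over young, of each of the 10 genes by edgeR (black points, bars ± SE), with the range over the 6 fits that leave out 1 sample (grey). Cdon, at -1.43, has the shortest error bar; Gli2, at -4.95, has the longest.

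Levels were ordered per length, as CPM per kilobase of annotated exon, and Gas1 had the highest mean in each age. In old cells Gas1 was highest at 52.1 CPM per kilobase, then Boc at 35.6, Scube2 at 13.7, Cdon at 10.8, Smo at 6.66, Hhip at 4.54, Gli3 at 2.61, Gli1 at 1.45, Ptch1 at 1.19 and Gli2 at 0.136. Only Boc and Scube2 among these neighbours had ranges over samples that did not overlap. In young cells the order was Gas1 at 61.5, Cdon at 29.2, Boc at 27.3, Smo at 11.2, Hhip at 5.34, Gli2 at 4.28, Scube2 at 2.06, Gli3 at 1.65, Gli1 at 1.16 and Ptch1 at 0.445 CPM per kilobase. There the ranges of Gas1 and Cdon, and of Boc and Smo, did not overlap, and those of all other neighbours did. Linear amplification, per the labels' protocols, may not cover transcripts evenly, so levels per length are approximate.

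The ligands were scarce. Shh had 1.65, 1.74 and 4.0 CPM in old samples 1, 2 and 3, against 1.30, 1.47 and 0.900 CPM in young samples 1, 2 and 3. The groups did not overlap, but the log2 fold change of 1.01 had an SE of 1.12. Dhh, the ligand of Schwann cells and endothelium, had counts in old sample 2 and young sample 2 only, at 1.53 and 6.25 CPM, and did not pass the filter. Ihh was not analysed here. Disp1, the transporter that exports the ligand, had 10.2, 6.32 and 23.1 CPM in old samples 1, 2 and 3, against 18.7, 74.7 and 24.2 CPM in young samples 1, 2 and 3. The groups overlapped, since old sample 3 exceeded young sample 1.

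Other genes of the pathway did not pass the test in either direction, by edgeR, DESeq2 or limma-voom, and at an unadjusted edgeR p under 0.05 Btrc was the 1 gene counted in these 5 lists. Of 6 tested genes for ligands and their release, 0 passed in edgeR and the median log2 fold change was -0.42. Of 7 other surface genes 0 passed, with a median of 0.21. Among them, Neo1, a receptor related to Cdon, had 192, 61.0 and 26.7 CPM in old samples 1, 2 and 3, against 337, 330 and 133 CPM in young samples 1, 2 and 3 (edgeR adjusted p = 0.888). Its ranges overlapped, as old sample 1 exceeded young sample 3. Lrp2, an endocytic receptor for the ligand, had a log2 fold change of 0.33 (SE 1.18), and Gpr161, a ciliary receptor that restrains the pathway, one of -0.85 (SE 1.70).

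Of 18 tested intracellular genes 0 passed, with a median log2 fold change of -0.11. Without overlap, 1 was higher and 1 lower in old samples, where 5.56% and 6.44% of all genes tested were. Sufu, which holds GLI factors in the cytoplasm, had 23.0, 16.0 and 22.5 CPM in old samples 1, 2 and 3, against 20.7, 18.0 and 36.0 CPM in young samples 1, 2 and 3. The ranges overlapped. Spop, an adaptor for GLI degradation, had a log2 fold change of 0.33 (SE 0.32), and Stk36, a kinase related to the fly gene fused, -0.81 (SE 1.92). Kif7, a kinesin of the cilium tip, did not pass the filter. Of 15 tested primary cilium genes, which serve the organelle where SMO and GLI factors act, 0 passed, with a median of 0.02. Ift88, Kif3a and Arl13b had log2 fold changes of 0.27 (SE 0.77), -0.41 (SE 0.70) and 0.42 (SE 0.66).

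Of 10 other target genes 0 passed, with a median log2 fold change of 0.11. Foxf1 and Foxf2, forkhead factors of mesenchyme, had wide spreads. Foxf2 had 38.2, 7.05 and 0.293 CPM in old samples 1, 2 and 3, against 2.11, 0.355 and 2.75 CPM in young samples 1, 2 and 3, and Foxf1 had a log2 fold change of 1.97 (SE 1.65). Old sample 1 was the highest Foxf2 value and old sample 3 the lowest. Ccnd1, a cyclin of the G1 phase, had a log2 fold change of 0.42 (SE 0.53).

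**Figure D5:**
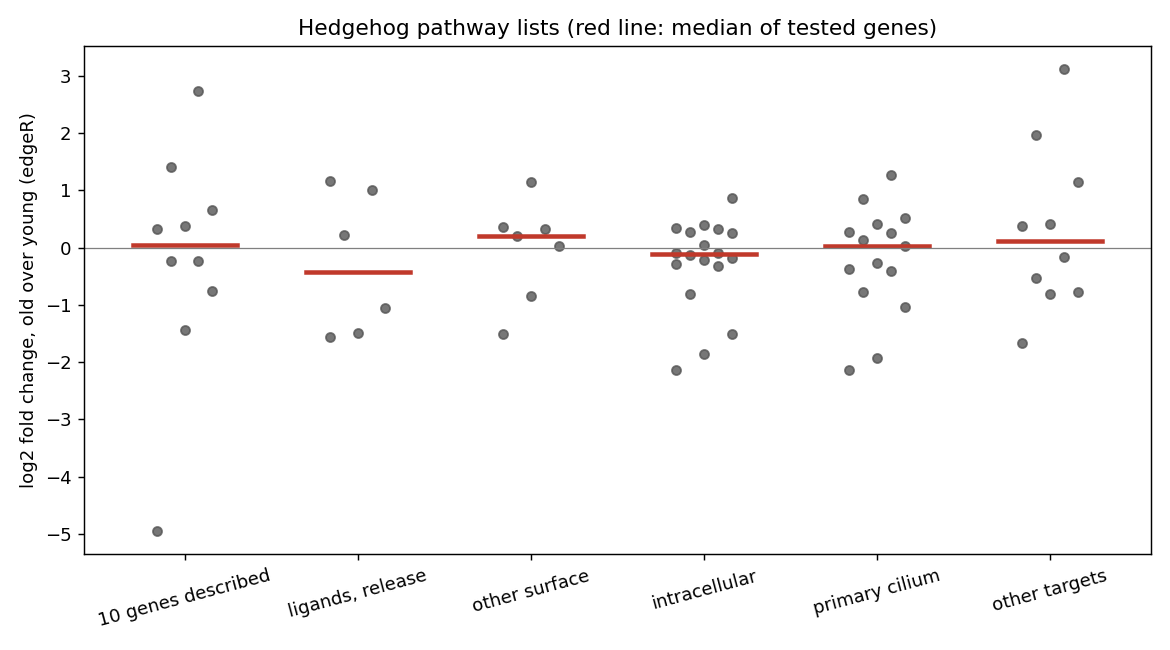
Log2 fold change, old over young, by edgeR of every tested gene in the set of 10 and in 5 other lists of pathway genes; points are genes, spread sideways for legibility, and red lines are medians. The medians lie between -0.42 and 0.21, with genes on both sides of 0 in each list.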

How the data were processed

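RNA from 6 samples of sorted meningeal lymphatic endothelial cells (3 old, 3 young) was linearly amplified and sequenced, per the labels' protocols. FastQC, Salmon and mm10 are named in the submitters' processing notes, without versions. The authors deposited whole-number estimated counts per Ensembl gene; annotation, gene summarising and strandedness were not stated in the labels. Salmon divides shared reads by likelihood. Symbols, positions and exon lengths came from GENCODE annotation of GRCm38, and 22738 of 22964 genes had a symbol. Genes were tested with edgeR 4.0.16 (filterByExpr with a minimum of 10 counts, TMM, robust quasi-likelihood fit on age, two-sided, Benjamini-Hochberg threshold 0.05); 15394 genes were kept and 7570 removed. CPM values use TMM-scaled library sizes, and log2 CPM a prior count of 2. The SE of a log2 fold change was derived from the edgeR test, as its size divided by the square root of the F statistic. It is therefore approximate. DESeq2 1.42.0 and limma 3.58.1 (limma-voom) were alternatives, with other scalings, filters, a replicate block and each sample left out. The fits were tested on simulated counts with 200 genes changed: of 14712 genes left, edgeR recovered 0%, 1.49% and 22.7% of those changed by 2-, 4- and 8-fold. Orders of level between genes were taken per kilobase of exon, and ratios between genes from counts not corrected for length. The genes, lists and tests were chosen with earlier results of these data known. By rule, the named genes were the 10 members, 18 fixed pathway genes and the 5 genes nearest to Cdon, besides markers from the cell type lists; Scube1, Scube3, Gpc6 and Btrc were added after their values were seen; a gene that the rule names is not reported here.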

Additional observations from a re-analysis of the deposited data

How the results depend on the processing

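Cdon, Gli2, Scube2, Boc, Ptch1 and Smo kept the sign of their log2 fold change in all 14 alternatives, while Gas1, Gli1, Gli3 and Hhip changed sign in at least 1, as given above. Every one of these values moved by less than 1 SD between replicates. That limit is loose for genes with a wide spread, at 2.31 log2 units for Gli2, 1.80 for Ptch1 and 1.46 for Gli1. Under it, the Gli2 value still went from -4.95 to -2.97 without young sample 1. Over all genes edgeR called 0 and counted 856 at an unadjusted p under 0.05, 441 higher and 415 lower. With library size as the only scaling 546 genes were lower and 285 higher, and the all-gene median was -0.12 log2 units against 0.02. The adjusted calls were 130 with DESeq2 and 3 with limma-voom, and 0 to 1 with a sample left out, where Igkv10-96 alone passed without old sample 1. The unadjusted count was 1543 with no filter and 1374 with DESeq2, and 696 to 1396 with a sample left out. The median over the 10 genes, 0.04 log2 units, became -0.44 with limma-voom, -0.29 with a replicate block and -0.56 to 0.15 with a sample left out; the cause was not tested. The samples share replicate numbers, but pairing by number was not seen in the values. Deviations from the group means correlated at 0.08, 0.05 and -0.01 for numbers 1, 2 and 3, and not every sample was closest to its own number. Correlations this weak cannot decide whether the samples were paired. With the replicate block edgeR called 0 genes, with 319 higher and 393 lower at an unadjusted p under 0.05. Depth limits genes with few counts, among them Gli2 in old samples.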

Other observations

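Relatives of the genes above, chosen after their values were seen, did not pass the edgeR test. Scube1, a paralogue of Scube2, had 5.99, 36.7 and 34.2 CPM in old samples 1, 2 and 3, against 72.7, 53.9 and 32.8 CPM in young samples 1, 2 and 3. Its log2 fold change was -1.05 (SE 0.73), opposite in sign to that of Scube2, and its ranges overlapped. Scube3 had 121, 1.38 and 33.9 CPM in old samples 1, 2 and 3, against 18.9, 6.75 and 44.6 CPM in young samples 1, 2 and 3, so that old samples 1 and 2 were the highest and the lowest of all.

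Gpc6 encodes a glypican, one of the heparan sulphate proteoglycans of the cell surface. It had 413, 266 and 320 CPM in old samples 1, 2 and 3, against 278, 283 and 304 CPM in young samples 1, 2 and 3, with overlapping groups and a log2 fold change of 0.21 (SE 0.24). Btrc, a ubiquitin ligase subunit that acts on GLI factors, had 6.43, 12.8 and 18.7 CPM in old samples 1, 2 and 3, against 71.7, 31.6 and 34.8 CPM in young samples 1, 2 and 3. Every old value was below every young value, but the gene did not pass (edgeR adjusted p = 0.888).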
